A study of Mus musculus with 6 samples.

Results

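The genes described here are 4 Wnt ligands (Wnt2, Wnt4, Wnt5a and Wnt11), 2 R-spondins (Rspo1 and Rspo3) and 2 R-spondin receptors (Lgr5 and Lgr6). They were taken by symbol from the deposited table of UMI counts (unique molecular identifiers, by which copies of 1 captured RNA molecule are counted as 1), where each had 1 row, and make up 8 of its 27998 genes. They were followed across cell classes of mouse lung: mesenchymal subtypes gated on Hhip, Slc7a10, Pi16 or Adh7, mural cells, mesothelium, endothelium and leukocytes. The labels name 6 samples of sorted lung cells. They are the SMA+Tm+, SMA-Tm+ and SMA-Tm- gates from mice on day 21 after bleomycin, a drug used to injure the lung and induce fibrosis, and the same 3 gates from normal mice, labelled day 0. All mice had the genotype SMA-GFP;Tbx4cre;RosaTdTomato, so GFP reports smooth muscle actin (SMA), and tdTomato (Tm) marks cells in which Cre driven by Tbx4 has been active at any time. Per the labels, the cells were sorted as negative for Epcam, CD31 and CD45, antigens of epithelium, endothelium and leukocytes. The mice's age and strain, the bleomycin dose and the number of mice per sample are not given in the sources used here. Each gate and day has 1 sample, and the barcodes end in suffixes 1 to 6 that neither the labels nor the table tie to a sample. Day 21 and day 0, and the sort gates, were therefore not compared, the table was treated as 1 pooled sample, and no test was made. All intervals are 95% intervals of counting error.

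Wnts are secreted, lipid-modified proteins that bind Frizzled receptors. With the co-receptors Lrp5 and Lrp6 they stabilise β-catenin, while Wnt5a and Wnt11 are best known for signalling without it, through partners such as Ror2. R-spondins do not activate Frizzled themselves: bound to Lgr4, Lgr5 or Lgr6, they take away Znrf3 and Rnf43, the ubiquitin ligases that clear Frizzled from the cell surface, and so strengthen a Wnt signal. In the mouse embryo, Wnt2 from the mesenchyme, together with Wnt2b, is required to specify the lung, and in the adult mouse lung Lgr5 and Lgr6 are known to mark mesenchymal cells.

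Promoter sequence was at hand for 5 of the 8 genes, and that of 4 of them is shown, since they mark different places in the comparison: Lgr6 and Wnt11 were highest in Hhip-gated cells, Wnt2 in Slc7a10-gated cells and Rspo1 in mesothelium. Each line runs 5′ to 3′ on the gene's strand and ends at the base before the annotated start, or, for Wnt2, at position -141, where an annotated exon begins. Capitals mark letters of a TATA box (TATAAA), a GC box (GGGCGG) or a TCF/LEF site (CTTTGAT), on either strand. The sequences are RefSeq's, build GRCm38.p6: Lgr6 at chr1:135105277-135105526 (minus strand), Wnt11 at chr7:98834862-98835111 (plus strand, the upstream one of 2 starts), Wnt2 at chr6:18030586-18030695 (minus strand) and Rspo1 at chr4:124986180-124986429 (plus strand).
Lgr6: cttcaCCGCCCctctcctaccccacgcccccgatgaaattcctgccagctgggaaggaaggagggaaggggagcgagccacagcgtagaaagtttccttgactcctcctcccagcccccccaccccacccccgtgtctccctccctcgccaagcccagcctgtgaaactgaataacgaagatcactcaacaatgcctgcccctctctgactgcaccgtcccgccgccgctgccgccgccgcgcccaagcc
Wnt11: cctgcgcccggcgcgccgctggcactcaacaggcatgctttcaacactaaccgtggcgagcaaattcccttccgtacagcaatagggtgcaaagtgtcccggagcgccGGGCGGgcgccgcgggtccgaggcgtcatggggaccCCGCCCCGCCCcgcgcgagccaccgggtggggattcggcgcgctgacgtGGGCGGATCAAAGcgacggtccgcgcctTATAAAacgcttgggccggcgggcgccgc
Wnt2: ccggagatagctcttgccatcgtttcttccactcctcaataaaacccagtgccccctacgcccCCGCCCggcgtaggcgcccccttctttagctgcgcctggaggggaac
Rspo1: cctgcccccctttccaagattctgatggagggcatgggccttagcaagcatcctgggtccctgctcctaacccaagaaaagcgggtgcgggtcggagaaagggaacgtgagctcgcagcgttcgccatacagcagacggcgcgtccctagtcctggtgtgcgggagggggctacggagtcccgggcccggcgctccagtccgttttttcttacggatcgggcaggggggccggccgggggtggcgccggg

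The Wnt11 window held a TATA box at position -29, a TCF/LEF site (read as ATCAAAG) at -51 and GC boxes at -142, -106, -101 and -57, the last adjoining the TCF/LEF letters. Lgr6 had a GC box at -245 and Wnt2 one at -187, and the Rspo1 window held none of these letters. Among 32851 RefSeq windows of 250 bases, 12.4% held TATAAA, 32.7% GGGCGG, 3.21% CTTTGAT and 33.8% CCAAT, which was searched too and found in none of the 4 windows. A match is a description of the letters and not a binding site. In the GENCODE M21 annotation of GRCm38, Lgr6 spans chr1:134983301-135105276 (minus strand), Wnt11 chr7:98835112-98855195 (plus), Wnt2 chr6:17988940-18030585 (minus), Rspo1 chr4:124986430-125009099 (plus) and Wnt4 chr4:137277489-137299726 (plus). Wnt5a lies at chr14:28504750-28527448 (plus), Rspo3 at chr10:29452416-29535867 (minus) and Lgr5 at chr10:115450311-115587780 (minus). Lgr5, Rspo1 and Wnt5a overlap opposite-strand genes that had 0, 0 and 7 UMIs in all barcodes, and Rspo3 and Wnt11 overlap annotated loci that were not counted here.

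The table holds 10410 barcodes and 35262820 UMIs, 2778071 to 12427810 per suffix, and 9919 barcodes were kept as cells. Suffixes 1 and 4 held 2330 of the 2470 mesenchymal cells (94.3%), and suffix 4 alone 1790. These suffixes also differ in sex-linked transcripts: Xist was detected in 0 of 540 mesenchymal cells of suffix 1 and in 1745 of 1790 of suffix 4 (97.5%), and Y-linked genes in 44.1% and 0.0559%. Sex, day and gate cannot be told apart between suffixes. Barcode sequences found in more than 1 suffix numbered 110 barcodes, 24 of them mesenchymal or mesothelial cells, and every count of members past 2-fold given below for the 4 subtypes was the same without them. Leukocytes, which the sort was meant to remove, were 4893 of the kept cells.

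A mesenchymal cell had 3 or more UMIs of Col1a2 and Col3a1 together and passed no gate of another lineage. It was called Hhip-gated (625 cells, median 2556 UMIs), Slc7a10-gated (323 cells, 2827 UMIs), Pi16-gated (335 cells, 3609 UMIs) or Adh7-gated (66 cells, 4008 UMIs) where exactly 1 of these 4 genes was detected. The gates follow ductal myofibroblasts, the fibroblasts known by Col13a1, those known by Col14a1, and a small Adh7 population. Of the markers set for each, leaving out the gate gene, 5 of 6 were highest of all 13 classes in Hhip-gated cells, 6 of 6 in Slc7a10-gated, 4 of 6 in Pi16-gated and 2 of 3 in Adh7-gated cells. The exceptions were Lmod1 (highest in mural cells), Dpp4 (mesothelium), and Ly6c1 and Aqp1 (endothelium). All 6 mural, 6 mesothelial and 5 endothelial markers and 5 of 6 leukocyte markers were highest in their own class, and no marker was at 0 UMIs in its class. Mural cells numbered 58 (median 1974.5 UMIs), mesothelial cells 88 (5060), endothelial cells 563 (1750) and leukocytes 4893 (3012). Levels are UMIs per 1000000 UMIs of a class (CPM). Because 3′ ends are counted, the number of UMIs does not grow with transcript length.

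**Figure D1:**
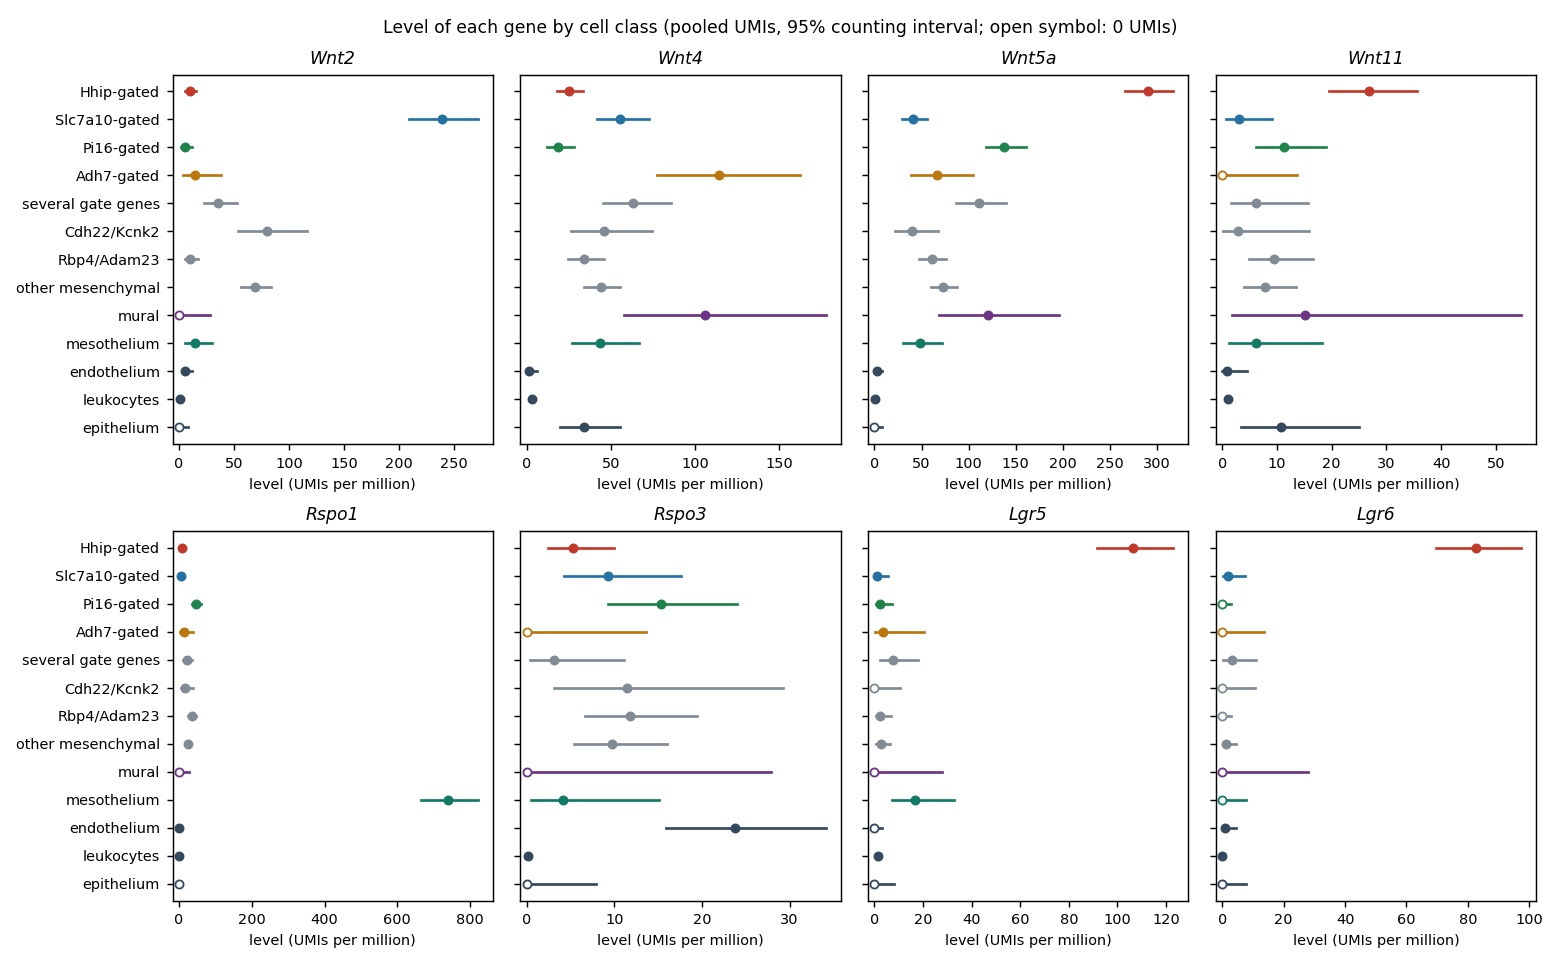
Level of each of the 8 genes (x axis, CPM on a linear scale that differs between panels) in 13 cell classes (rows), with the 95% counting interval as a line and an open symbol for 0 UMIs. Lgr5, Lgr6 and Wnt5a are highest in Hhip-gated cells, Wnt2 in Slc7a10-gated cells, Wnt4 in Adh7-gated and mural cells, Rspo1 in mesothelium and Rspo3 in endothelium.

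Hhip-gated cells carried the 2 receptors and the ligands Wnt5a and Wnt11, and had little Wnt2 and Rspo1. Against all other mesenchymal cells, 4 of 8 measured members were at least 2-fold higher (Lgr6, Lgr5, Wnt11 and Wnt5a) and 2 at least 2-fold lower (Wnt2 and Rspo1). Of all 11293 genes measured in this comparison, 4.71% were at least 2-fold higher and 8.18% at least 2-fold lower. A gene counted as measured where its pooled level would give 5 or more UMIs in the smaller side. The median log2 ratio was 0.52 over the members and 0.01 over all measured genes.

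Wnt5a, the most abundant of the 4 ligands, stood at 291 CPM in Hhip-gated cells (500 UMIs, interval 266 to 317) and at 80.1 CPM in other mesenchymal cells, a log2 ratio of 1.86 (1.68 to 2.04). It was detected in 294 of 625 Hhip-gated cells, of which 165 had 1 UMI and 49 had 3 or more, up to 7. Hhip-gated cells thus held 49.8% of all mesenchymal Wnt5a UMIs and 21.4% of all mesenchymal UMIs. The next levels were 138 CPM in Pi16-gated cells (118 to 160) and 121 CPM in mural cells (69.1 to 196), whose intervals overlap each other but not that of Hhip-gated cells. Slc7a10-gated cells had 41.1 CPM of Wnt5a, against 137 CPM in other mesenchymal cells, a log2 ratio of -1.73 (-2.23 to -1.28), and of -2.55 without suffix 4, where only 3 Wnt5a UMIs were left in the gate. Wnt5a was at 3.28 CPM in endothelium and 0.436 CPM in leukocytes.

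Wnt11, which like Wnt5a is best known outside the β-catenin route, was a rarer transcript. It had 26.7 CPM in Hhip-gated cells (46 UMIs in 43 cells) and 7.30 CPM in other mesenchymal cells, a log2 ratio of 1.87 (1.25 to 2.49), and of 2.52 in suffix 1. Of its 92 mesenchymal UMIs, 46 were in Hhip-gated cells. Pi16-gated cells had 11.3 CPM of Wnt11 (14 UMIs), which did not stand apart from other mesenchymal cells (log2 ratio -0.02, -0.96 to 0.81), and Slc7a10-gated cells had 3.09 CPM on 3 UMIs (log2 ratio -2.03, -4.34 to -0.44). The interval of Hhip-gated cells (19.6 to 35.7 CPM) overlaps that of the 2 mural UMIs of Wnt11 (15.1 CPM, 1.83 to 54.6). Adh7-gated cells had no Wnt11 UMI, and the upper limit of the interval at their depth is 13.6 CPM.

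Wnt2 had the sharpest placement among the ligands. It stood at 239 CPM in Slc7a10-gated cells (232 UMIs, 209 to 271) and 28.2 CPM in other mesenchymal cells, a log2 ratio of 3.08 (2.80 to 3.36), which was 4.69 where gates of 3 genes per subtype set the classes. In Hhip-gated cells Wnt2 had 9.88 CPM, against 65.7 CPM in other mesenchymal cells (log2 ratio -2.73, -3.53 to -2.04, and 1 of the 19 mesenchymal Wnt2 UMIs of suffix 1 was in the gate). In Pi16-gated cells Wnt2 had 5.65 CPM on 7 UMIs, against 62.5 CPM (log2 ratio -3.47, -4.79 to -2.41, and -1.74 without suffix 4, where 3 UMIs remained). Adh7-gated cells had 14.7 CPM on 4 UMIs (log2 ratio -1.90, -3.79 to -0.54). Wnt2 was therefore low in each of the other 3 gated subtypes. Across suffixes 1 to 6, Slc7a10-gated cells had Wnt2 at 184, 241, 200, 240, 272 and 247 CPM, on 9, 1, 1, 203, 13 and 5 UMIs. All 6 values lie within the counting interval of suffix 1 (84.2 to 350), which is wide because it rests on 9 UMIs. The narrower interval of suffix 4 (208 to 275) leaves out the values of suffixes 1 and 3, whose own intervals overlap it.

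In Slc7a10-gated cells as a whole, 1 of 8 measured members was at least 2-fold higher (Wnt2) and 5 were at least 2-fold lower, beside 5.29% of all measured genes higher and 8.96% lower. The lower ones were Wnt5a, Wnt11 and Rspo1, with Lgr5 and Lgr6 at 1 and 2 UMIs. The median log2 ratio of the members was -1.88, with these last 2 set at a floor of 3 UMIs, and that of all measured genes 0.06. Wnt4 and Rspo3 were within 2-fold there, at 55.5 against 37.6 CPM and at 9.26 against 9.08 CPM.

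Wnt2 was also found in cells that the Slc7a10 gate left out. Mesenchymal cells with Cdh22 or Kcnk2 but no subtype gene had 80.1 CPM (53.2 to 116), and those with none of these genes 69.1 CPM (56.6 to 83.4), so these neighbours in the order do not differ beyond counting error. Npnt, a basement membrane gene on the marker list of the Col13a1 fibroblasts, sorted them: among mesenchymal cells outside the gate and without Hhip, Wnt2 had 5.61 CPM in 746 cells with no Npnt UMI, 11.9 CPM in 178 cells with 1, 43.1 CPM in 258 cells with 2 to 4, and 129 CPM in 233 cells with 5 or more. Wnt5a went the other way over the same cells, from 102 CPM with no Npnt UMI to 50.2 CPM with 5 or more. The median depth of these cells was 3185, 3562.5, 2961.5 and 2944 UMIs, and Npnt and Wnt2 come from the same libraries, so this is a description of co-occurrence.

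Wnt4 was the most evenly spread ligand. It was highest in Adh7-gated cells, at 114 CPM (31 UMIs in 18 of 66 cells, 77.6 to 162), against 37.2 CPM in other mesenchymal cells, a log2 ratio of 1.62 (1.04 to 2.16). This rests on suffix 4, which held 29 of the 31 UMIs in 55 of the 66 cells, while the 7 Adh7-gated cells of suffix 1 had none. Among 6 measured members in Adh7-gated cells, Wnt4 alone was at least 2-fold higher, beside 1.02% of all measured genes, and 2 were at least 2-fold lower, beside 5.62%: Wnt2 and, on 1 UMI, Lgr5. The median log2 ratio was -0.87 over these members, with 2 of them at the floor, and -0.04 over all measured genes. With 2 or more Adh7 UMIs asked of a cell, 1 member could still be measured and none was past 2-fold. Wnt4 had 18.6 CPM in Pi16-gated cells, against 43.6 CPM in other mesenchymal cells (log2 ratio -1.23, -1.91 to -0.62), and 25.0 CPM in Hhip-gated cells, against 43.8 CPM (log2 ratio -0.81, -1.31 to -0.34).

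Mural cells, the contractile cells around vessels, had Wnt4 at 106 CPM (14 UMIs in 12 of 58 cells, 57.8 to 178), which does not differ beyond counting error from Adh7-gated cells. With Wnt5a at 121 CPM and no UMI of Wnt2, these were the 3 members that could be measured there. Against all mesenchymal cells, 1 was at least 2-fold higher (Wnt4, log2 ratio 1.41, 0.52 to 2.18) and 1 lower (Wnt2), beside 5.77% and 11.1% of all measured genes. The Wnt2 call is 2.37-fold with the class set at a floor of 3 UMIs. On its 0 UMIs the interval of the log2 ratio reaches up to -0.94, short of 2-fold. Of 16 Wnt5a UMIs, 15 were in suffix 4. Both levels depend on how mixed cells are treated: where cells that also pass a gate of another lineage were kept, the 90 mural cells had Wnt4 and Wnt5a at 47.0 CPM each. Lgr6 had no UMI in the 58 cells, but 36.0 CPM in the 85 cells found when 2 or more of Higd1b, Cox4i2, Notch3 and Pdgfrb had to be detected.

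**Figure D2:**
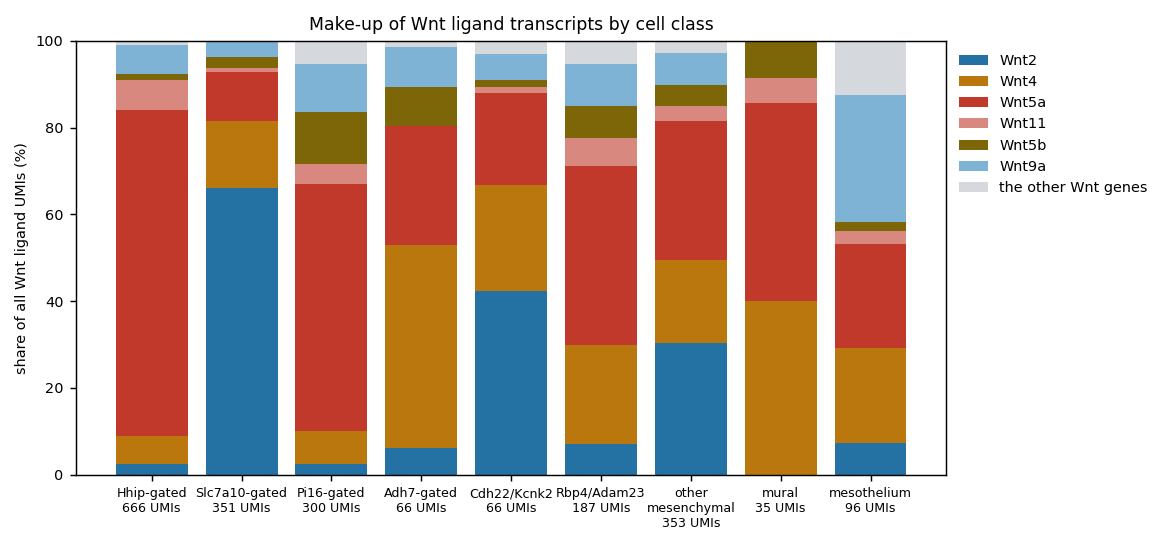
Share of all Wnt ligand UMIs (y axis, percent, 19 Wnt genes in the table) taken by each ligand in 9 cell classes (bars), with the number of Wnt UMIs under each bar. Wnt5a takes 75.1% in Hhip-gated cells, Wnt2 takes 66.1% in Slc7a10-gated cells and Wnt4 takes 47.0% in Adh7-gated cells.

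The subtypes differed more in which Wnt they carried than in how much, as the plot of ligand shares shows. Summed over 19 Wnt genes, the level was 387 CPM in Hhip-gated cells (358 to 418), 361 CPM in Slc7a10-gated (324 to 401), 242 CPM in Pi16-gated (216 to 271) and 243 CPM in Adh7-gated cells (188 to 309). The range over the 4 subtypes was thus narrower than that of Wnt2 or Wnt5a alone. Wnt5a made up 75.1% of 666 Wnt UMIs in Hhip-gated cells (71.6 to 78.3), and Wnt2 made up 66.1% of 351 in Slc7a10-gated cells (60.9 to 71.0). Pi16-gated cells had Wnt5a at 57% of 300 UMIs, Wnt5b at 12% and Wnt9a at 11%, and Adh7-gated cells had Wnt4 at 47.0% of 66 UMIs and Wnt5a at 27.3%. In mesothelium Wnt9a had 29.2% of 96 UMIs, Wnt5a 24.0% and Wnt4 21.9%, which do not differ beyond counting error, and the summed level was 12.3 CPM in endothelium and 8.83 CPM in leukocytes.

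Wnt2 and Wnt5a met in few cells. In Slc7a10-gated cells, 10 cells had both Wnt2 and Wnt5a, where the product of the shares within each suffix gives 16.8, and their median depth was 3746 UMIs. In Hhip-gated cells 3 had both, against 6.72 from the shares. These counts are small.

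Rspo1 was foremost a mesothelial transcript. It stood at 740 CPM in mesothelium (355 UMIs, 665 to 821) and 22.8 CPM in all mesenchymal cells, a log2 ratio of 5.02 (4.76 to 5.29). It was detected in 78 of 88 mesothelial cells, 46 of them with 3 or more UMIs and 1 with 26. The share of mesothelial cells was 88.6%, and 71.8% after thinning each cell to 1500 UMIs. In leukocytes the share with an Rspo1 UMI was 0.225% unthinned and 0.117% thinned, at median depths of 5060 and 3012 UMIs for the 2 classes. In suffixes 1 to 6 the mesothelial level was 505, 797, 836, 751, 760 and 868 CPM, from 11, 12, 4, 54, 3 and 4 cells. Every suffix was above the highest mesenchymal class. Of 7 measured members in mesothelium, 1 was at least 2-fold higher (Rspo1) and 3 lower (Wnt2, Wnt5a and Lgr6), beside 7% and 15.7% of all measured genes. Lgr6 had 0 UMIs there, 2.95-fold lower at a floor of 3 UMIs, and the interval of its log2 ratio reaches up to -1.24.

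Within the mesenchyme, Rspo1 was highest in Pi16-gated cells, at 46.8 CPM (58 UMIs, 35.6 to 60.6), against 18.4 CPM in other mesenchymal cells, a log2 ratio of 1.35 (0.87 to 1.81). Cells with Rbp4 or Adam23 but no subtype gene followed at 35.4 CPM (25.8 to 47.4), which overlaps. Hhip-gated cells had 7.56 CPM of Rspo1 on 13 UMIs (log2 ratio -1.84, -2.77 to -1.02, with 12 of the UMIs in suffix 4), and Slc7a10-gated cells 5.14 CPM on 5 UMIs (log2 ratio -2.30, -3.94 to -1.05). In suffix 1, Pi16-gated cells had 20.9 CPM of Rspo1 on 4 UMIs, and in suffix 4 they had 53.4 CPM on 53 UMIs. All mesenchymal cells, Pi16-gated ones included, had 11.9 CPM in suffix 1 and 25.1 CPM in suffix 4. Pi16-gated cells were thus above them in both suffixes, with overlapping intervals in suffix 1. Most UMIs behind the Pi16 value were in suffix 4. Among the 8 measured members in Pi16-gated cells, Rspo1 alone was at least 2-fold higher, beside 3.09% of all measured genes. Wnt2, Wnt4, Lgr5 and Lgr6 were at least 2-fold lower, 4 in all, beside 8.46%, and the median log2 ratio was -0.63, with Lgr6 at the floor, against -0.10 over all measured genes.

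Rspo3, the other R-spondin, was sparse, and its highest level was in endothelium. Endothelial cells had 23.8 CPM (29 UMIs in 19 of 563 cells, 15.9 to 34.1), against 9.10 CPM in all mesenchymal cells, a log2 ratio of 1.38 (0.71 to 2.02). The next level, 15.3 CPM in Pi16-gated cells (19 UMIs, 9.24 to 24.0), overlaps it. Pi16-gated cells were just under 2-fold above other mesenchymal cells for Rspo3 (log2 ratio 0.95, 0.11 to 1.72), and Hhip-gated cells were at 5.23 CPM (log2 ratio -0.96, -2.15 to 0.06). The last value pools unlike suffixes, with 12.3 CPM on 5 UMIs in suffix 1 and 3.08 CPM on 4 UMIs in suffix 4, where the log2 ratio was -1.87, past 2-fold. In suffix 1, Hhip-gated cells had the highest Rspo3 level of the mesenchymal classes. The other mesenchymal UMIs there were 1 in Pi16-gated cells and 2 in cells with Rbp4 or Adam23 (9.47 CPM). The direction was therefore not the same in suffixes 1 and 4, on few UMIs. In endothelium, suffixes 1 to 6 had 2, 1, 4, 9, 13 and 0 UMIs of Rspo3, or 13.6, 4.60, 24.4, 37.3, 42.2 and 0 CPM. The intervals of suffixes 2 and 5 (0.116 to 25.6 and 22.5 to 72.2 CPM) overlap. Only 3.37% of endothelial cells had an Rspo3 UMI (2.59% thinned), and 0.0613% of leukocytes (0.0233% thinned), at median depths of 1750 and 3012 UMIs. The other 7 members were at least 2-fold lower in endothelium than in mesenchymal cells, beside 18.2% of all measured genes, 5 of them with 0 to 2 UMIs and counted at the floor, and Rspo3 was the 1 of 8 at least 2-fold higher, beside 15.5%.

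Most mesenchymal UMIs of the receptors Lgr5 and Lgr6 were in Hhip-gated cells. Lgr5 had 106 CPM in Hhip-gated cells (91.5 to 123) and 2.70 CPM in other mesenchymal cells, a log2 ratio of 5.30 (4.58 to 6.11). Lgr6 had 82.6 CPM in Hhip-gated cells (69.5 to 97.3) and 0.952 CPM in other mesenchymal cells, a log2 ratio of 6.44 (5.28 to 7.91). Hhip-gated cells held 183 of 200 mesenchymal Lgr5 UMIs (91.5%) and 142 of 148 mesenchymal Lgr6 UMIs (95.9%).

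Outside the gate the 2 receptors were near the limit of detection. Slc7a10-gated cells had 1 UMI of Lgr5 and 2 of Lgr6. Pi16-gated cells had 3 UMIs of Lgr5 (log2 ratio -3.58, -5.87 to -2.02) and none of Lgr6. At a floor of 3 UMIs in the class, Lgr6 was 9.01-fold lower than in other mesenchymal cells. The interval of its log2 ratio reaches up to -2.85. Adh7-gated cells had 1 UMI of Lgr5 and none of Lgr6, with upper limits of 20.5 and 13.6 CPM. Endothelium had no Lgr5 UMI and 1 of Lgr6. At a floor of 3 UMIs, Lgr5 was 10.1-fold lower there than in mesenchymal cells, and the interval of its log2 ratio reaches up to -3.03. The second level in the order of Lgr5 was mesothelium, with 16.7 CPM (8 UMIs in 6 cells, 7.20 to 32.9), all in suffix 4, and the third was the class with several subtype genes, with 7.69 CPM.

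Detection was sparse even where the receptors were highest. Lgr5 was detected in 123 of 625 Hhip-gated cells (19.7%, and 12.3% thinned), 83 of them with 1 UMI and none with more than 4. Lgr6 was detected in 121 (19.4%, and 12% thinned), 103 of them with 1 UMI. In leukocytes the shares were 0.470% (0.117% thinned) for Lgr5 and 0.0204% for Lgr6 (0 of 4291 cells thinned), at a median depth of 3012 UMIs, against 2556 in Hhip-gated cells. Either receptor was found in 208 Hhip-gated cells and both in 36, where the product of the shares within each suffix gives 23.5. The 36 cells had a median of 2708.5 UMIs, the 417 cells with neither 2545. Wnt5a met Lgr5 in 70 Hhip-gated cells (56.5 from the shares) and Lgr6 in 72 (58.8 from the shares), so ligand and receptors were found in the same cells. The median depth of these cells was 2772.5 and 2884.5 UMIs, against 2556 in the class, and the part of depth was not tested. With so few UMIs per cell, absence of a receptor in a cell was not detectable at this depth.

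**Figure D3:**
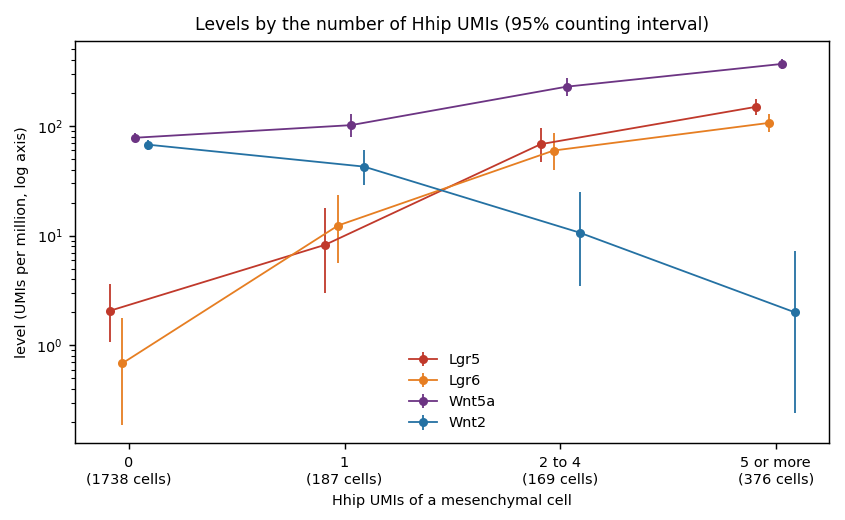
Levels of Lgr5, Lgr6, Wnt5a and Wnt2 (y axis, CPM, log scale) in mesenchymal cells with 0, 1, 2 to 4, or 5 or more Hhip UMIs (x axis), with 95% counting intervals; lines join the points of a gene. Lgr5 goes from 2.06 to 150 CPM and Lgr6 from 0.687 to 107 CPM as Hhip UMIs go up, while Wnt2 goes from 67.5 to 2.0 CPM.

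The level of the receptors went with the number of Hhip UMIs in a cell, as the plot by Hhip UMIs shows. Hhip encodes a membrane protein that binds Hedgehog ligands. In 1738 mesenchymal cells with 0 Hhip UMIs, 187 with 1, 169 with 2 to 4 and 376 with 5 or more, Lgr5 had 2.06, 8.25, 68.2 and 150 CPM. Lgr6 had 0.687, 12.4, 59.7 and 107 CPM over the same cells, and Wnt5a 78.1, 102, 228 and 368 CPM. Median depth was 3025, 3767, 2255 and 2589 UMIs, so it did not go up with the receptors. Cells with 1 Hhip UMI lay nearer to cells without it than to cells with 5 or more in other genes too: Npnt had 872, 668, 207 and 14 CPM over the 4 bins, and Wnt2 67.5, 42.6, 10.7 and 2.0 CPM. These bins take in all mesenchymal cells, also those with another subtype gene, which the Hhip gate leaves out: of the 431 mesenchymal Wnt2 UMIs, 17 were in Hhip-gated cells. With 2 or more Hhip UMIs asked of a cell, the log2 ratios of all 4 higher members stayed past 2-fold.

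**Figure D4:**
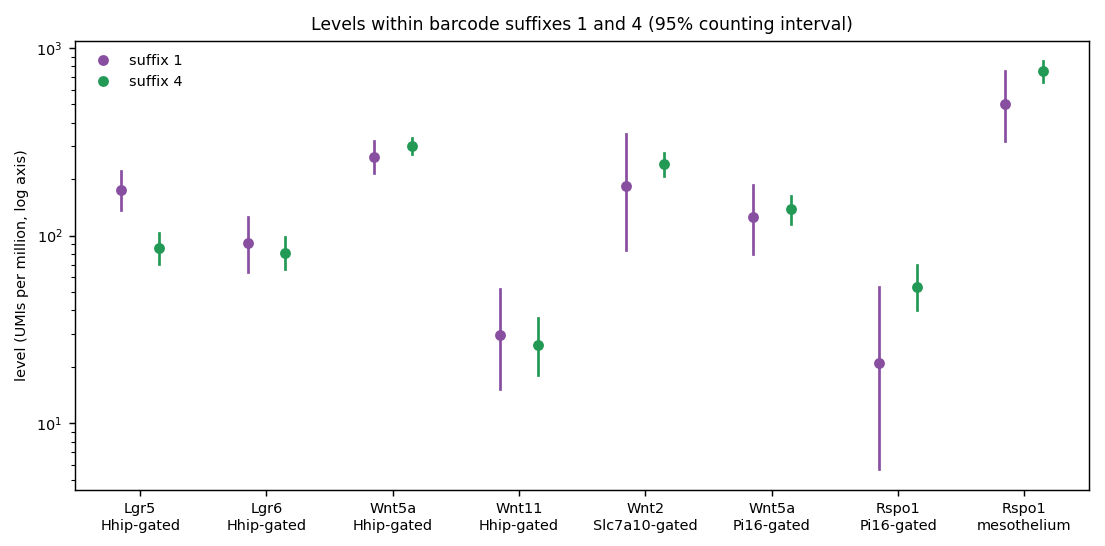
Levels (y axis, CPM, log scale) of 8 pairs of a gene and a class, for barcode suffix 1 and barcode suffix 4, with 95% counting intervals. The intervals of the 2 suffixes overlap in each pair except for Lgr5 in Hhip-gated cells, at 175 and 85.5 CPM.

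Both large suffixes showed the same placement. In suffix 1, 71 of 74 mesenchymal Lgr5 UMIs and all 37 Lgr6 UMIs were in Hhip-gated cells, and in suffix 4, 111 of 125 and 105 of 111. The log2 ratio of Lgr5 was 5.50 in suffix 1, 5.0 in suffix 4 and 5.94 without suffix 4. The level of Lgr5 in Hhip-gated cells differed between the suffixes, with 175 CPM in suffix 1 (137 to 221) and 85.5 CPM in suffix 4 (70.3 to 103), a log2 ratio of suffix 1 over suffix 4 of 1.04 (0.59 to 1.48). Lgr6 did not (91.3 and 80.9 CPM, log2 ratio 0.18, -0.41 to 0.73). Hhip itself went the way of Lgr5, with 3224 CPM in suffix 1 and 2000 CPM in suffix 4 (log2 ratio 0.69, 0.59 to 0.79). Among Hhip-gated cells with 5 or more Hhip UMIs, the Lgr5 log2 ratio between suffixes was 0.80 (0.29 to 1.3), Lgr6's was -0.27 (-0.99 to 0.40) and Wnt5a's was -0.68 (-1.08 to -0.29), with Wnt5a at 260 CPM in suffix 1 and 416 CPM in suffix 4. Hhip-gated cells had a median of 1902 UMIs in suffix 1 and 3005 in suffix 4. The part of day, gate, sex or library in these differences was not tested.

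The other genes of the pathway were read from a list of 63, all in the table. In Hhip-gated cells 42 could be measured, of which 4 were at least 2-fold higher and 5 lower, and the list's median log2 ratio was -0.12, against 0.01 over all measured genes. Nkd1, a feedback inhibitor that binds Dishevelled, had 138 CPM in Hhip-gated cells, against 57.4 CPM in other mesenchymal cells (log2 ratio 1.27, 1.03 to 1.51, and 1.43 in suffix 1). This was not particular to Hhip-gated cells: Nkd1 had 144 CPM in mural cells, 121 CPM in mesothelium and 394 CPM in endothelium, but 1.53 CPM in leukocytes. Myc, a transcription factor gene known as a Wnt target in gut, had 48.8 against 10.8 CPM (log2 ratio 2.18, 1.70 to 2.66), but 0.52 in suffix 1, 2.46 in suffix 4 and 0.48 without suffix 4, so its call rests on suffix 4. The Frizzled gene Fzd5 had 6.40 against 2.54 CPM on 11 and 16 UMIs (log2 ratio 1.33, 0.08 to 2.53, and 0.89 in suffix 4). On the lower side were Wnt5b (log2 ratio -1.56, -2.73 to -0.57, and -0.94 in suffix 1 on 3 UMIs), Nkd2, the partner of Nkd1 (-1.53, -2.70 to -0.54), and Fzd4 (-1.28, -1.92 to -0.71, and -0.71 without suffix 4).

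In Slc7a10-gated cells 40 genes of the list could be measured, 7 at least 2-fold higher and 3 lower (median log2 ratio 0.03, against 0.06 over all measured genes). Znrf3, the ubiquitin ligase that R-spondins remove, had 87.4 CPM there, against 26.7 CPM in other mesenchymal cells (log2 ratio 1.71, 1.33 to 2.09). The co-receptor gene Ptk7 had 224 against 75.2 CPM (log2 ratio 1.58, 1.34 to 1.81). Notum encodes a secreted enzyme that inactivates Wnts by taking off their lipid. It had 30.9 against 12.6 CPM (log2 ratio 1.29, 0.64 to 1.90), and 29 of its 30 UMIs were in suffix 4. Notum was also at least 2-fold higher in Hhip-gated cells, at 26.2 against 11.7 CPM (log2 ratio 1.16, 0.59 to 1.71). Its highest level of all classes was in Adh7-gated cells, at 40.5 CPM on 11 UMIs, where it was too sparse to count as measured. Lower were Myc, on 3 UMIs (log2 ratio -2.78, -5.07 to -1.20), Fzd2 (-1.25, -1.98 to -0.61) and Ccnd1, on 5 UMIs (-1.18, -2.84 to 0.10).

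Pi16-gated cells had 41 measured genes of the list, 3 at least 2-fold higher and 8 lower (median log2 ratio 0.03, against -0.10 over all measured genes). Higher were Wnt5b (29.1 against 10.3 CPM, log2 ratio 1.49, 0.87 to 2.09, and 2.78 in suffix 1), Fzd4 (1.22, 0.82 to 1.61, and 0.74 in suffix 1) and the receptor gene Ror1 (1.05, 0.28 to 1.79). Tnfrsf19, a receptor gene known as a Wnt target, had 8.08 CPM in Pi16-gated cells, against 111 CPM in other mesenchymal cells (log2 ratio -3.78, -4.85 to -2.89). Ptk7 had 17.8 against 107 CPM (log2 ratio -2.59, -3.27 to -1.98), and Notum 1 UMI, against 17.4 CPM. In Adh7-gated cells 23 genes could be measured, and Notum was not among them. None of the 23 was at least 2-fold higher and 1 was lower, Lrp5 on 3 UMIs (log2 ratio -1.19, -3.48 to 0.37). The median log2 ratio was -0.14, against -0.04 over all measured genes.

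The partners of the receptors were spread differently from the receptors themselves. Lgr4, the third receptor of the family, had 11.6 CPM in Hhip-gated cells (7.10 to 18.0) and 5.14 CPM in Slc7a10-gated cells (1.67 to 12), and the intervals of all 8 mesenchymal classes overlap. Against other mesenchymal cells (6.19 CPM), Hhip-gated cells were higher in Lgr4 but within 2-fold (log2 ratio 0.91, 0.05 to 1.72). Rnf43 had no UMI in 2470 mesenchymal cells, where the exact upper limit is 0.460 CPM, and 19.3 CPM in epithelium. Axin2, a feedback target of β-catenin signalling, had 60.5 CPM in Hhip-gated cells (49.4 to 73.3), 77.1 CPM in Slc7a10-gated cells (60.7 to 96.7) and 27.5 CPM in Pi16-gated cells (19.0 to 38.4). Axin2 was thus lower in Pi16-gated cells than in the other 2, whose intervals overlap. Wls, needed to carry Wnts out of the cell, was found in every class, from 47.8 CPM in leukocytes to 231 CPM in mesothelium.

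Genes with the most similar pattern were taken by Pearson's r of log2(CPM + 10) over the 13 classes, among 10557 genes with 200 or more UMIs. The classes share libraries and depth, and r is given as a description. For Lgr6 they included P4ha3 (r = 0.96) and Lgr5 (0.91), and for Lgr5 Tceal3 (0.93) and P4ha3 (0.92). Wnt2 was most like Adrb3 (0.97), Prkg2 (0.97) and Bmper (0.96), and Wnt5a like Ecm2 (0.97), Hspa1a (0.96) and Prdx4 (0.96). Rspo1 was most like Aldh1a2 (0.96), itself on the mesothelial marker list, Crebl2 (0.94) and C2 (0.93). For the sparser genes r was lower at the third place: Wnt4 with Irak1bp1 (0.89), Tead3 (0.88) and Gpx8 (0.87), Wnt11 with Pfn2 (0.84), Kcnq1ot1 (0.83) and Thbs2 (0.81), and Rspo3 with Atg4b (0.90), Mrrf (0.87) and Prkag1 (0.86).

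In leukocytes all 8 members were at least 2-fold lower than in mesenchymal cells, beside 28% of all measured genes, and none of the 8 was higher, beside 20.5%. Lgr6 was counted at the floor, on 1 UMI. Their levels there were 0.0545 CPM for Lgr6 and 0.164 to 1.36 CPM for Rspo3, Wnt5a, Wnt2, Rspo1, Wnt11 and Lgr5. Wnt4 was the highest, at 3.27 CPM (60 UMIs in 59 of 4893 cells), and 0.938, 7.62, 3.22, 1.91, 2.31 and 3.04 CPM in suffixes 1 to 6.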

How the data were processed

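The authors deposited raw UMI counts per gene and barcode (counts, not normalized). The build mm10 and the tools Cell Ranger 1.3.0 and STAR 2.5.1 are named, per the submitters' processing notes; whether counting used strand, and how barcodes were called as cells, are not given in the sources used here. A normalized table of the same barcodes was not used. The members and the gene lists were chosen with earlier results of these data known. The individual mice behind each sample are not given in the sources used here, and the samples are pooled in the table.

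A barcode was kept if it had at least 500 genes and no more than 10% of its UMIs from mitochondrial genes (9994 barcodes). Scrublet (scanpy 1.11.5), run per suffix, called 75 doublets (0.750%), which were removed. Gates were Col1a2 and Col3a1 (3 or more UMIs) for mesenchymal cells, Higd1b, Cox4i2 and Notch3 (2 or more) for mural cells, 2 or more of Wt1, Upk3b and Msln detected for mesothelium, Pecam1 and Cdh5 (2 or more) for endothelium, Ptprc, Laptm5 and Coro1a (2 or more) for leukocytes, and Epcam and Cdh1 (2 or more) for epithelium. Cells passing gates of several lineages (517) were left out, and 1255 passed none.

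UMIs were summed per class and divided by the class total. Levels have exact Poisson intervals, shares exact Clopper-Pearson intervals and ratios exact conditional binomial intervals, at 95%; in droplet data these cover counting error only. A class with fewer than 3 UMIs entered a call at a floor of 3. Shares were also computed after thinning each cell to 1500 UMIs. All 8 members were named, with, of the 63 pathway genes, the 3 highest and 3 lowest past 2-fold in each subtype, and the 3 genes most similar to each member, of which 1 gene is not reported here; Lgr4, Rnf43, Axin2 and Wls were singled out after their values were seen, as were the splits by Hhip and Npnt UMIs. The ratio was tested on simulated data, the outcome of which is not given here and was not used in reading the ratios. Python 3.11.15, numpy 2.4.6, scipy 1.17.1, pandas 2.3.3 and matplotlib 3.10.9 were used.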

Additional observations from a re-analysis of the deposited data

How the results depend on the processing

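No paired analysis was possible because each gate and day has 1 sample and the suffixes are not tied to samples. Of 30 member ratios measured in the 4 subtypes, 20 were past 2-fold; under the alternatives these gave 231 values, all 231 of the same sign and 229 still past 2-fold, some of them with a side at the floor of 3 UMIs. Ranges of the log2 ratio were 4.27 to 6.04 for Lgr5, 3.90 to 7.48 for Lgr6 (its lowest against the other 3 subtypes weighted equally), 1.5 to 2.16 for Wnt5a and 1.5 to 2.52 for Wnt11 in Hhip-gated cells, 2.72 to 4.69 for Wnt2 in Slc7a10-gated cells, 1.23 to 2.36 for Rspo1 in Pi16-gated cells and 1.54 to 2.36 for Wnt4 in Adh7-gated cells.

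Counts of members past the fold moved by over 1.5 times as follows; the cause was not tested unless fewer measured members are given. In only suffix 1, the lower count in Hhip-gated cells was 1 (6 measured), Slc7a10-gated cells had 0 higher and 1 lower (1 measured), and Pi16-gated cells 0 higher and 2 lower (3 measured). Without suffix 4, Slc7a10-gated cells had 0 higher and 2 lower (2 measured) and Pi16-gated cells 0 higher (5 measured). Suffix 4 alone gave 2 higher in Pi16-gated cells. In Adh7-gated cells no member could be measured in only suffix 1 or without suffix 4. Gates of 3 genes gave 2 higher in Slc7a10-gated and in Pi16-gated cells and 1 lower in Adh7-gated cells. A collagen gate of 10 UMIs gave 2 lower in Slc7a10-gated cells (4 measured), 2 higher in Pi16-gated cells and 1 lower in Adh7-gated cells (4 measured). Asking for 2 or more UMIs of the gate gene left 0 higher and 0 lower in Adh7-gated cells (1 measured). Means over cells gave 2 higher in Pi16-gated and 4 lower in Adh7-gated cells. The other 3 subtypes weighted equally gave 4 lower in Hhip-gated and in Adh7-gated cells. A fold threshold of 3 gave 0 higher in Pi16-gated and 1 lower in Adh7-gated cells. Smaller moves were 3 lower in Hhip-gated cells under 2 or more UMIs of the gate gene, gates of 3 genes, the collagen gate of 10 UMIs, the filter of 1000 genes and 5% mitochondrial UMIs, suffix 4 alone and means over cells, 4 lower in Slc7a10-gated cells under 2 or more UMIs of the gate gene (7 measured), and 3 lower in Pi16-gated cells at a fold of 3. Leaving out barcode sequences found in more than 1 suffix, an alternative added after the data were seen, moved no count.

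Of 208 alternative levels in mural cells, mesothelium, endothelium and leukocytes, 32 fell outside the counting interval, and 21 of 64 thinned shares stood apart from the unthinned share. Depth limits the sparse members. The UMI floor used for calls equals 11.1 CPM in the 66 Adh7-gated cells and 22.7 CPM in the 58 mural cells. Levels under these values rest on fewer UMIs than the floor, such as Lgr5 in Adh7-gated cells (3.68 CPM on 1 UMI).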

Other observations

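Members also appeared in a few cells outside the stroma; the subsets below were chosen after the values were seen. Of 25 leukocyte Lgr5 UMIs, 17 were in 715 cells with UMIs of both Cd79a, a B cell receptor component, and Vpreb3, a gene of B cell precursors and some B cells. The level was 8.90 CPM there (5.18 to 14.2), 1.05 CPM in 650 cells with Cd79a but no Vpreb3 (2 UMIs), and 0.413 CPM in cells without Cd79a. Leukocyte Lgr5 had 11 UMIs in suffix 3, 7 in suffix 6 and 0 to 3 in each of the others.

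Wnt11 had 38.2 CPM (14 to 83.2; 6 UMIs in 5 cells) in the 25 leukocytes with Fscn1, a gene of mature dendritic cells, and 0.770 CPM in leukocytes without it. Wnt10a, another Wnt ligand, had 30 UMIs in 23 leukocytes. Wnt4 had 16 UMIs in 5 of 75 epithelial cells, 8 of them in 1 cell. Endothelial Rspo3 had 0 UMIs in 50 cells with Vwf but no Gpihbp1 or Car4 (upper limit 37.6 CPM). It had 22.5 CPM in cells with Gpihbp1 alone of these genes, 23.9 CPM in cells with Car4 but no Vwf and 29.3 CPM in the rest.

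Wnt2 over all mesenchymal cells of a suffix had 16.1 CPM in suffix 1, 57.8 in suffix 4, 174 in suffix 5 and 222 in suffix 6. Slc7a10-gated cells were 23 of 540, 268 of 1790, 17 of 36 and 9 of 29 mesenchymal cells there, and the level within these gated cells was 184, 240, 272 and 247 CPM. Mesenchymal cells left over by all the gates had Wnt2 at 27.1, 71.4, 285 and 255 CPM in the same suffixes, on 5, 91, 6 and 4 UMIs. The level in these cells thus differed between suffixes too, and the part of the gate share was not tested.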
